A study of Mus musculus with 4 samples.

Results

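COPII is the protein coat that buds vesicles carrying newly made proteins from the endoplasmic reticulum (ER) toward the Golgi, and 10 genes that encode its subunits were described here: Sar1a and Sar1b, Sec23a and Sec23b, Sec24a, Sec24b, Sec24c and Sec24d, Sec13 and Sec31a. They were chosen by gene symbol, and all 10 were found among the 22722 genes of the count tables. The 4 samples came from MPC11, a line of mouse plasmacytoma, that is, of malignant plasma cells, which make and secrete immunoglobulin. Cells in RPMI medium with fetal bovine serum received lentivirus with polybrene for 18 h, puromycin for 72 h and a further 72 h of expansion. In 2 cultures the virus was pLKO.1-shGFP, a hairpin against GFP, which mouse cells lack (shGFP, the control). In the other 2 it was pLKO.1-shELL2-1C7, a hairpin against Ell2, which encodes an elongation factor of RNA polymerase II (Ell2-KD). All Ell2-KD cultures carried the same single hairpin, and virus and puromycin were common to both groups. The labels state 2 biological replicates per treatment but do not say whether they came from separate transductions. Thus p-values reflect only the spread among these samples, which may be narrower than that between transductions. The series addressed splicing, which counts per gene do not resolve, so the values below are total reads of each gene.

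In the COPII cycle the small GTPase Sar1 is loaded with GTP by Preb (the mouse Sec12) and inserts into the ER membrane. Sar1 recruits the inner coat, a complex of Sec23, which stimulates GTP hydrolysis by Sar1, and Sec24, which binds the sorting signals of cargo. Sec13 and Sec31 then join as the outer cage. Mammals have several copies of most subunits: Sec24a and Sec24b form one subclass with overlapping cargo and Sec24c and Sec24d the other. Plasma cells depend on this route because the immunoglobulin they secrete leaves the ER in COPII vesicles.

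Reads could be assigned to single paralogs only if the copies differ in sequence, so the closest stretches of each pair are shown. In the coding sequences of the GENCODE M21 annotation (build GRCm38), Sar1a and Sar1b were 78.8% identical over aligned bases, Sec23a and Sec23b 75.6%, Sec24a and Sec24b 69.1%, and Sec24c and Sec24d 66.5%. Between the Sec24 subclasses identity was 60.7% to 61.8%. The longest run of identical bases in each pair is in capitals below, with 20 bases of coding sequence on each side in lower case, 5′ to 3′.
Sar1a: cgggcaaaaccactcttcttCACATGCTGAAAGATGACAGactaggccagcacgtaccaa
Sar1b: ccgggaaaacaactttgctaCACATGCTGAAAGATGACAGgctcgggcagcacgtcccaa
Sec23a: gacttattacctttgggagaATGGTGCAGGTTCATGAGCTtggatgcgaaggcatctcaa
Sec23b: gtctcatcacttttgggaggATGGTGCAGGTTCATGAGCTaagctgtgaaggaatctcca
Sec24a: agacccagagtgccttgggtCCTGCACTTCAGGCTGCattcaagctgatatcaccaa
Sec24b: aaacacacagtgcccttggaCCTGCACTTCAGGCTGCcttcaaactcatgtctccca
Sec24c: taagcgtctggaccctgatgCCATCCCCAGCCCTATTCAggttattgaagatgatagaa
Sec24d: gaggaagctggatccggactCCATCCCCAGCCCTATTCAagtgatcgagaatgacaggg
The runs are 20 bases long for Sar1 (coding bases 127 to 146 of both genes, counted from the A of the start codon), 20 for Sec23 (bases 514 to 533 of both), 17 for Sec24a and Sec24b, and 19 for Sec24c and Sec24d. No 35-base window of any member's main transcript occurred in another member. Windows shared with genes outside the family made up 8.04% of the Sec13 transcript (shared with Gm7700 and 4933417G07Rik), 3.41% of Sec24c (the antisense transcript 6230400D17Rik), 0.859% of Sec23a (the antisense transcript Gm17529) and 0.393% of Sec24b. They made up none of the transcripts of the other 6 members. The strand setting of the counting is not known, so reads of the antisense transcripts could not be told apart from Sec24c and Sec23a over these short parts. The partners of Sec13 do not overlap its exons. How reads of the sequence that Sec13 and Sec24b share with other genes were counted is not stated.

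The promoters of 4 members are shown because Sec24a and Sec24b had the paralog ratio that differed most between groups, and Sec23a and Sec24d were the only members with a match to TGACGTG, the core of elements bound by ATF6, XBP1 and CREB3-family factors of the ER stress response. Sec23a is a known target of Creb3l2, a factor of this family in secretory cells. Each window runs from 250 bases before to 50 bases after the start in RefSeq (build GRCm38.p6). Letters are lower case and TGACGTG is in capitals.
Sec24a (chr11:51756785-51757084, minus strand): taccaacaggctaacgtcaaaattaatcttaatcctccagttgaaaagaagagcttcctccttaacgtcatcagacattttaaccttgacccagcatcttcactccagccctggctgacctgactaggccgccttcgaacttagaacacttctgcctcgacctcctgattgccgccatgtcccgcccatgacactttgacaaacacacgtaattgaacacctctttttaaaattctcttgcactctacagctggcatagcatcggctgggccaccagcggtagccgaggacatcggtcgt
Sec24b (chr3:130060858-130061157, minus strand): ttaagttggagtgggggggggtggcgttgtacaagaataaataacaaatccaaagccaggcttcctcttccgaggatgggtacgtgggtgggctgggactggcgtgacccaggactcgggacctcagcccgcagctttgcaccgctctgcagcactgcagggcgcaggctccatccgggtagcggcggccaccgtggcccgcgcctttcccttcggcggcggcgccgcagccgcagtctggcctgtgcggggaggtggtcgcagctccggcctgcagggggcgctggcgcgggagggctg
Sec23a (chr12:59011968-59012267, minus strand): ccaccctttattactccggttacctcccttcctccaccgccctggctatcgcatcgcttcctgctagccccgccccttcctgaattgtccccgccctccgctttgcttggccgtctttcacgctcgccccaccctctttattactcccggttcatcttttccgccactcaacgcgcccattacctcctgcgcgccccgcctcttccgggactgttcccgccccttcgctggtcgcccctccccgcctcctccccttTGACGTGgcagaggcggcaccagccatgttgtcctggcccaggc
Sec24d (chr3:123267246-123267545, plus strand): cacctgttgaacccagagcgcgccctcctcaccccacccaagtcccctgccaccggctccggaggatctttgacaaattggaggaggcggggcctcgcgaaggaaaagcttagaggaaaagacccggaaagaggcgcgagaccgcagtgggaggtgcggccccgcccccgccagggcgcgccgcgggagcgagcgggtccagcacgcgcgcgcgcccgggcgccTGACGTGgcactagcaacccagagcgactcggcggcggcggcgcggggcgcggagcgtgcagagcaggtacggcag
TGACGTG, searched on both strands, began 26 bases before the start of Sec24d and 6 bases after that of Sec23a, and it occurred in 2.01% of 32851 windows of this length in the RefSeq table. Neither the ER stress response element (CCAAT and CCACG with 9 bases between them, 0.119% of windows) nor its shorter relative (ATTGG and CCACG with 1 base between them, 0.0365%) matched any of the 12 windows of the 10 members on either strand. The 5-base part CCACG, which in Sec24d and Sec23a overlaps TGACGTG on the other strand, occurred in 32.8% of windows and, beside those genes, in Sec24b, Sec24c, Sec31a, Sec13 and Sar1a. A match says only that these letters are present. In the RefSeq order of protein-coding genes Sec24a and Sar1b are direct neighbours on chromosome 11, on opposite strands.

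The 4 libraries held 3496471 to 13914488 counts, and both extremes were Ell2-KD. Of all genes, 11027 had enough counts to be tested, among them all 10 members. On the CPM scale (counts relative to the library total, scaled between libraries by TMM), the targeted gene Ell2 stood at 935 and 993 in the control libraries and at 87.5 and 115 in the depleted ones (edgeR log2 change -3.25, adjusted p = 0.00032). The plasma cell label was met by its markers: 9 plasma cell genes, led by Igj, summed to 13828 to 21560 CPM of all counts. Markers of other cells were scarce. Summed CPM was 1.15 to 5.90 over 11 T and NK cell genes, 1.56 to 4.60 over 10 myeloid genes (1.56 and 3.14 in shGFP, 4.58 and 4.60 in Ell2-KD) and 0.240 to 1.18 over 6 erythroid genes. S100a8, Hbb-b1 and Hbb-b2 had no count in any library, where 3 counts would be 0.216 CPM in the deepest and 0.858 in the shallowest. Among 10 fibroblast and epithelial genes Epcam alone gave 449.8 to 623 CPM and the other 9 together 3.60 to 12.9. These sums overlapped between groups except for the myeloid genes. Some single plasma cell genes differed more than their sum, of which Igj was the largest part. By log2 change 8 of 9 were lower in Ell2-KD, beside 50.1% of all tested genes. Of the 9, 7 were lower without overlap between groups, beside 18.5% of all tested genes. At an unadjusted p under 0.05 there were 3, all lower, beside 3.26%, although none passed after adjustment (edgeR). Cd38 alone was higher, without overlap, at 7.37 and 13.8 CPM (TMM-scaled) in shGFP and 23.5 and 17.2 in Ell2-KD. Tnfrsf17, the plasma cell receptor BCMA, stood at 18.9 and 24.9 CPM (TMM-scaled, as below) in shGFP and 1.27 and 0.29 in Ell2-KD. Pou2af1, a B cell coactivator, stood at 1122 and 902 in shGFP and 620 and 475 in Ell2-KD, and Sdc1, the surface marker CD138, at 782 and 646 and at 476 and 346. Tnfrsf17, Pou2af1 and Sdc1 were thus lower in the same libraries as Sec24a and Sec23a below. The part of the plasma cell and myeloid genes in the results below was not tested.

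All 10 coat subunits were expressed in control cells, and the levels per length of transcript spanned a wide range. On the scale of CPM per kilobase of annotated exon, over the 4 libraries of both groups, Sec13 stood at 228 ± 42.4 (SD, n = 4) and Sar1b at 228 ± 28.5, with overlapping ranges. Sar1a followed at 105 ± 14.6, below every value of these and above every value of the other 7. Sec31a (48.9 ± 6.97), Sec24c (43.8 ± 10.2), Sec23b (38.4 ± 4.43), Sec24a (34.9 ± 13.1), Sec23a (34.2 ± 11.6) and Sec24d (29.1 ± 7.95) came next, and each overlapped its neighbour in this order. Sec24b was lowest at 15.3 ± 4.55 and overlapped Sec24d. By reads Sar1a (275 CPM) and Sar1b (273 CPM) were alike over the 4 libraries, so their gap per length rests on the lengths used. These were 2613 and 1201 bases in GENCODE M21, and the annotation used for counting is not stated. On these lengths the small GTPase and the small cage subunit Sec13 were the most abundant members and Sec24b the least. Their order within the groups differed for the inner coat: Sec24a was number 5 of the 10 genes in shGFP and number 8 in Ell2-KD, while Sec24c was number 8 in shGFP and number 4 in Ell2-KD. Sec31b, the paralog of Sec31a, had 19 and 5 counts in shGFP and 80 and 3 in Ell2-KD against 841 to 2513 counts of Sec31a, so Sec31a gave nearly all Sec31 reads. Summed over the 10 members, levels were 1974 and 2016 CPM in shGFP and 1805 and 1958 in Ell2-KD. Both depleted sums were below both controls, with a ratio of 0.94 between the means. In cultures measured in bulk, fewer cells with a transcript and less of it per cell cannot be told apart.

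**Figure D1:**
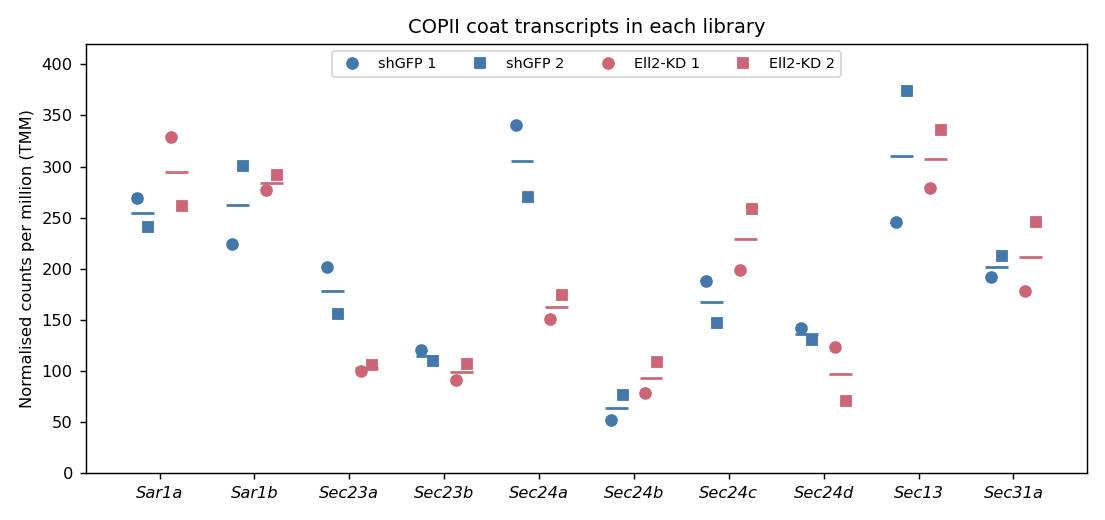
Normalised counts (CPM, TMM-scaled) of each COPII coat gene in each library: circles are replicate 1 and squares replicate 2, blue shGFP and red Ell2-KD, with a line at each group's mean. Sec23a and Sec24a lay at 100.1 to 174 in Ell2-KD, with each gene's Ell2-KD values below its own in shGFP, while Sar1a, Sar1b, Sec13 and Sec31a overlapped between groups.

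No member passed the test between Ell2-KD and shGFP, which 0.0453% of all tested genes did (5 of 11027; 0.00907% higher and 0.0363% lower), and DESeq2 called no member either. At an unadjusted p under 0.05 there were 2 of 10 members, Sec24a and Sec23a, both lower in Ell2-KD, where 5.82% of all tested genes reached that level, 3.26% lower and 2.57% higher. This count moved with single libraries: it was 5 of 10 without Ell2-KD replicate 1, where 1373 of 11448 genes reached that level, and 1 of 10 without shGFP replicate 1, where 389 of 11459 did. With the replicate number as a block it was 3 of 10, and 1168 of 11027 genes. Groups did not overlap for 6 of 10 members, 2 higher (Sec24b and Sec24c) and 4 lower (Sec23a, Sec23b, Sec24a and Sec24d), against 17.4% and 18.5% of all tested genes, 35.8% in all. These 6 are all the genes of the inner coat, and none of the 4 genes of Sar1 and the outer cage was among them. This split by layer was not tested, and the 6 differed in direction. Some gaps between the nearest libraries were small: 109 CPM in shGFP and 107 in Ell2-KD for Sec23b, and 76.0 and 77.9 for Sec24b. The median log2 change of the 10 members was 0.03, with 5 negative, beside -0.00 and 50.1% negative over all tested genes. Simulated counts with the means and spread of these libraries gave calls for 5.37% of genes set to a 2-fold change and for 50.3% at 4-fold. Most simulated 2-fold differences were thus not detected. Rates for the members alone, which stood at percentiles 70.6 to 94.8 of level among tested genes, were not taken.

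The GTPases come first in the cycle, and the groups overlapped for each of the 2 genes. Sar1a stood at 269 and 241 CPM in the controls (replicates 1 and 2, an order kept below) and at 329 and 261 in Ell2-KD. The groups overlapped, and the log2 change was 0.21 (95% confidence interval -0.29 to 0.72; edgeR adjusted p = 0.98). Sar1b, the copy tied to the export of large lipoproteins, stood at 224 and 301 CPM in shGFP and 277 and 291 in Ell2-KD. Its values in Ell2-KD lay between those of the controls, with a log2 change of 0.11 (-0.40 to 0.63; edgeR adjusted p = 0.999). Together the Sar1 genes summed to 493 and 541 CPM in shGFP and 606 and 552 in Ell2-KD. Both depleted sums were above both controls, with a ratio of 1.12 between the means, and no test was made.

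Of the Sec23 copies, which form the inner coat with Sec24, Sec23a was the one whose levels separated widely. It stood at 202 and 155 CPM in shGFP and at 100.1 and 106 in Ell2-KD. Both depleted libraries were close to each other and below both controls, with a log2 change of -0.80 ± 0.26 (SE; interval -1.37 to -0.22), or 1.74-fold lower, and an edgeR adjusted p of 0.68 (unadjusted p = 0.011, place 177 of 11027 genes by p). Sec23b stood at 120.3 and 109 CPM in shGFP and 90.5 and 107 in Ell2-KD. The depleted libraries were again the lower ones, but the gap between the nearest libraries was small beside the spread within Ell2-KD (log2 change -0.22, interval -0.82 to 0.38; edgeR adjusted p = 0.99). Together the Sec23 genes summed to 322 and 265 CPM in shGFP and 191 and 212 in Ell2-KD.

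The 4 genes for Sec24, the cargo-binding subunit, lay on both sides of 0. Sec24a was the most abundant of them in control cells by reads, at 341 and 270.2 CPM, and stood at 151 and 174 CPM in Ell2-KD. Both depleted libraries were far below both controls, with a log2 change of -0.91 ± 0.24 (SE; interval -1.43 to -0.39), or 1.88-fold lower. Its edgeR adjusted p was 0.52 (unadjusted p = 0.0028, place 59 of 11027), and over 11 alternative settings the adjusted p ran from 0.098 (replicate number as a block) to 1.00 (without shGFP replicate 1). Sec24b, its partner in the subclass, stood at 51.6 and 76.0 CPM in shGFP and 77.9 and 109 in Ell2-KD. The lower Ell2-KD library was close to the higher control, and the log2 change was 0.55 (interval -0.17 to 1.26; edgeR adjusted p = 0.91).

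Sec24c, of the other subclass, stood at 188 and 147 CPM in shGFP and 199 and 259 in Ell2-KD. Ell2-KD replicate 2 was well above the rest and replicate 1 near the higher control (log2 change 0.45, interval -0.11 to 1.00; edgeR adjusted p = 0.90). Without Ell2-KD replicate 2 the change was 0.26, and without shGFP replicate 2 it was 0.28. Sec24d stood at 142 and 130.2 CPM in shGFP and 124 and 70.0 in Ell2-KD. Here 1 library held most of the difference: the log2 change was -0.48 (interval -1.18 to 0.21; edgeR adjusted p = 0.92) with all 4 libraries and -0.13 without Ell2-KD replicate 2, the shallowest library. All Sec24 genes together summed to 722 and 623 CPM in shGFP and 552 and 612 in Ell2-KD.

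The outer cage showed no difference beyond the spread. Sec13, which is also a subunit of the nuclear pore and of an amino acid sensing complex, stood at 246 and 374 CPM in shGFP and 279 and 336 in Ell2-KD. Its libraries of replicate number 2 were the higher ones in both groups, and the log2 change was -0.01 (interval -0.57 to 0.55; edgeR adjusted p = 0.999). Sec31a, its partner in the cage, stood at 191 and 212 CPM in shGFP and 178 and 245 in Ell2-KD, so the controls lay between the depleted libraries (log2 change 0.07, interval -0.48 to 0.61; edgeR adjusted p = 0.999).

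**Figure D2:**
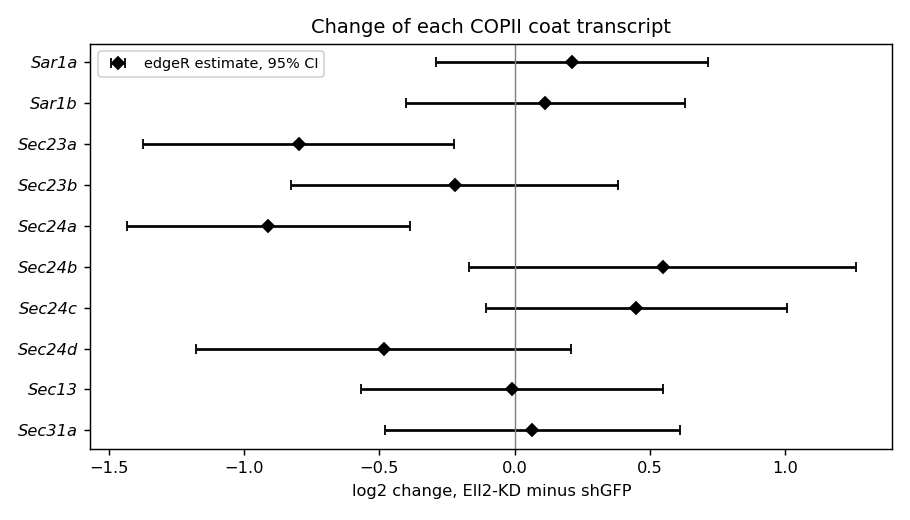
edgeR log2 change (Ell2-KD minus shGFP) of each COPII coat gene, with its 95% confidence interval as a bar. The intervals of Sec23a (-1.37 to -0.22) and Sec24a (-1.43 to -0.39) lie below 0 before adjustment for the number of genes tested, and the other 8 include 0.

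Ratios of paralogs within a library need no scaling between libraries, and they showed where copies of a subunit stood apart. With 2 libraries against 2 an exact permutation test (two-sided) cannot give a p under 0.333, so no ratio could pass a threshold of 0.05 by this test; 5 ratios were compared. The clearest was Sec24b to Sec24a. In the controls Sec24b gave 13.2% (95% exact binomial interval 12.02% to 14.4%) and 21.9% (20.02% to 23.96%) of the reads of this pair, and in Ell2-KD 34.0% (32.4% to 35.7%) and 38.4% (35.3% to 41.5%). On the log2 scale the ratio was -2.72 and -1.83 in the controls and -0.96 and -0.68 in Ell2-KD, so both depleted libraries were above both controls. The mean difference was 1.46, a 2.74-fold higher ratio (exact permutation p = 0.333, n = 2 per group), and it ran from 1.01 (without shGFP replicate 1) to 1.90 (without shGFP replicate 2). The control libraries differed from each other by more than their counting intervals, which cover counting error only.

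Sec23b to Sec23a differed in the same sense, with a smaller gap. Sec23b gave 37.4% (35.5% to 39.2%) and 41.3% (38.7% to 44.0%) of the Sec23 reads in shGFP and 47.5% (45.6% to 49.4%) and 50.3% (46.6% to 54.0%) in Ell2-KD. The groups did not overlap, and the mean log2 ratio was -0.63 ± 0.17 (SD, n = 2) in shGFP and -0.06 ± 0.11 (SD, n = 2) in Ell2-KD, a difference of 0.56 (exact permutation p = 0.333). Set beside the log2 changes of the single genes, the copy with the larger change in each of these pairs had a negative one: -0.80 for Sec23a against -0.22 for Sec23b, and -0.91 for Sec24a against 0.55 for Sec24b.

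Sec24d to Sec24c was lower in Ell2-KD, but by very different amounts in its libraries. Sec24d gave 43.0% (41.1% to 44.9%) and 47.0% (44.3% to 49.6%) of the reads of this pair in shGFP, 38.3% (36.9% to 39.8%) in Ell2-KD replicate 1 and 21.3% (18.9% to 23.8%) in Ell2-KD replicate 2. The mean difference in the log2 ratio was -0.99 (exact permutation p = 0.333), and -0.39 without Ell2-KD replicate 2. Sar1b to Sar1a was not set apart by group. Sar1b gave 45.5% and 55.6% of the Sar1 reads in shGFP and 45.7% and 52.8% in Ell2-KD, so the libraries of replicate number 1 were alike and below those of number 2 in both groups, and the difference in the log2 ratio was -0.08 (exact permutation p = 1.0). The ratio of Sec31b to Sec31a rested on 3 to 80 counts of Sec31b and overlapped between groups (exact permutation p = 1.0).

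**Figure D3:**
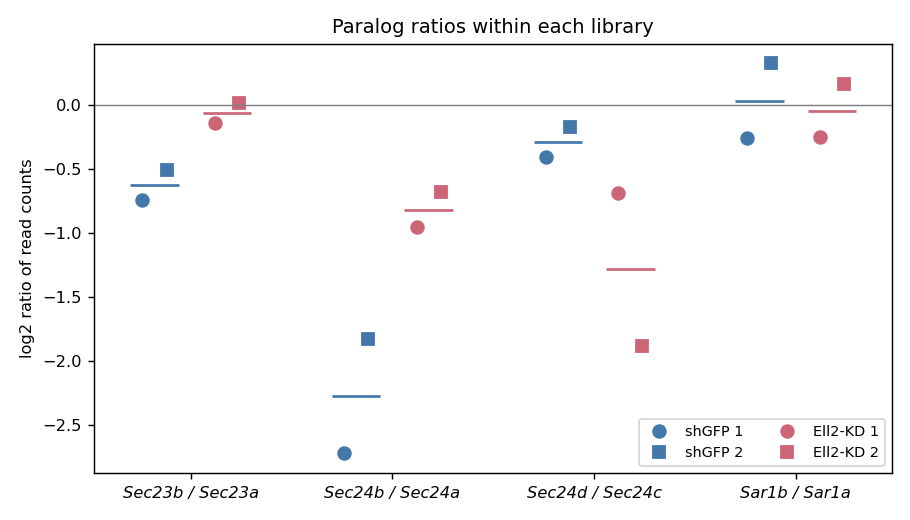
log2 ratio of the read counts of paralogs within each library (0.5 added to each count): circles are replicate 1 and squares replicate 2, blue shGFP and red Ell2-KD, with a line at each group's mean. For Sec24b to Sec24a the controls are at -2.72 and -1.83 and the Ell2-KD libraries at -0.96 and -0.68, while for Sar1b to Sar1a the groups overlap.

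Across the whole Sec24 family the leading gene was not the same in the 2 groups. Sec24a gave 47.2% and 43.4% of all Sec24 reads in shGFP and 27.4% and 28.5% in Ell2-KD. Sec24c gave 26.1% and 23.6% in shGFP and 36.1% and 42.3% in Ell2-KD. Thus Sec24a led in both controls and Sec24c in both depleted libraries, at 2096 to 7803 Sec24 reads per library. Sec24b gave 7.15% and 12.2% in shGFP and 14.1% and 17.8% in Ell2-KD, and Sec24d gave 19.6% and 20.9% in shGFP and 22.4% and 11.5% in Ell2-KD.

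By subclass, Sec24a and Sec24b together gave 54.3% (53.1% to 55.6%) and 55.5% (53.8% to 57.3%) of the reads in shGFP and 41.5% (40.4% to 42.6%) and 46.2% (44.1% to 48.4%) in Ell2-KD. The mean was 54.9% ± 0.87 (SD, n = 2) against 43.9% ± 3.33 (SD, n = 2), and no test was made. Divided by transcript length, the leading genes were the same: Sec24a held 36.9% and 33.6% in shGFP against 30.1% and 27.0% for Sec24c, and 20.03% and 21.3% in Ell2-KD against 39.0% and 46.9% for Sec24c. On that scale Sec24a and Sec24b together held 44.2% and 45.9% in shGFP and 33.5% and 38.7% in Ell2-KD. Sec24c and Sec24d thus held the larger part per length in every library, controls included. The Sec24 shares are parts of 1 sum, so a lower share of Sec24a by itself raises the others.

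**Figure D4:**
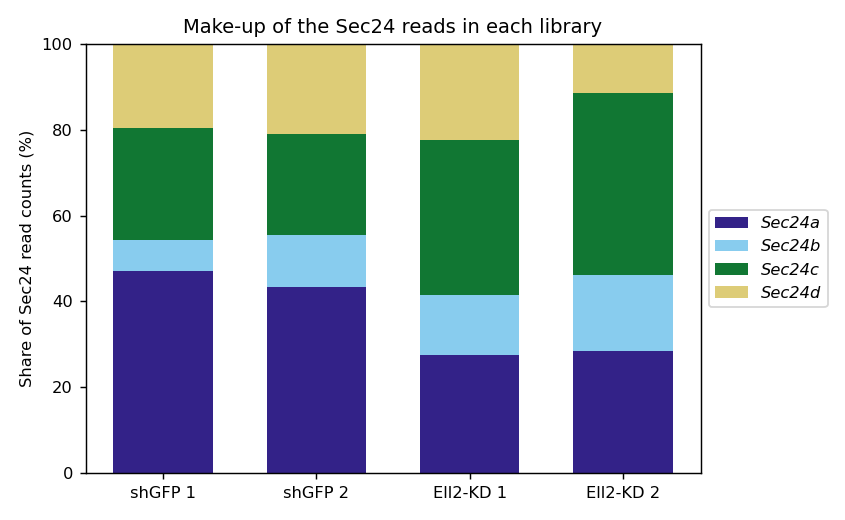
Share of all Sec24 read counts (%) taken by each of the 4 Sec24 genes, 1 stacked bar per library. Sec24a is the largest part in both shGFP libraries (47.2% and 43.4%) and Sec24c in both Ell2-KD libraries (36.1% and 42.3%).

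The factors that act with the coat did not pass the test either, and they were taken from lists written by role. In none of these lists did DESeq2 call a gene. Of 22 tested assembly and exit site factors, none passed in either direction by edgeR (2 higher and 0 lower at an unadjusted p under 0.05), with 13 positive, 9 negative and a median log2 change of 0.06. Over all tested genes 2.57% were higher and 3.26% lower at that level, and 50.1% were negative. Csnk1d, a casein kinase that phosphorylates coat proteins, stood at 82.3 and 87.4 CPM in shGFP and 134 and 147 in Ell2-KD (edgeR adjusted p = 0.75), and Ulk1, the autophagy kinase, differed by 1.16 ± 0.51 on the log2 scale (SE; edgeR adjusted p = 0.84), with Ell2-KD replicate 2 far above the other 3 libraries. Ulk1 passed when Ell2-KD replicate 1 was left out (edgeR adjusted p = 0.017), a fit in which that high library is the only one of Ell2-KD and is assumed to vary like the controls. Named for their roles, Preb, which activates Sar1, stood at 239 and 181 CPM in shGFP and 166 and 124 in Ell2-KD (edgeR adjusted p = 0.87), and the exit site scaffold Sec16a overlapped between groups (log2 change -0.17 ± 0.27).

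Of 24 tested cargo receptors and adaptors, 9 were positive and 15 negative, with a median of -0.06, and none passed by edgeR (1 higher and 1 lower at an unadjusted p under 0.05). Tmed10, a p24 family cargo receptor, stood at 162 and 164 CPM in shGFP and 116 and 50.8 in Ell2-KD (edgeR adjusted p = 0.78, and 0.0058 with the lower Ell2-KD library alone, assumed to vary like the controls), and Bcap29, an ER membrane export protein, differed by 0.70 ± 0.31 on the log2 scale (SE; edgeR adjusted p = 0.83). Of 22 SNAREs, tethers and Rabs of ER to Golgi transport, 6 were positive and 16 negative, with a median of -0.20 and none past the threshold or at an unadjusted p under 0.05 by edgeR; Golga2 (the golgin GM130) and Gorasp1, a Golgi stacking protein, had log2 changes of -0.99 ± 0.52 and -0.60 ± 0.38. Of 19 genes of COPI, the coat of the reverse route, 5 were positive and 14 negative, with a median of -0.15 and likewise none at either level; Kdelr2, an ER retrieval receptor, and Arfgap3, which acts on the COPI GTPase, had log2 changes of -0.50 ± 0.30 and -0.70 ± 0.42. Over all tested genes the median was -0.00.

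**Figure D5:**
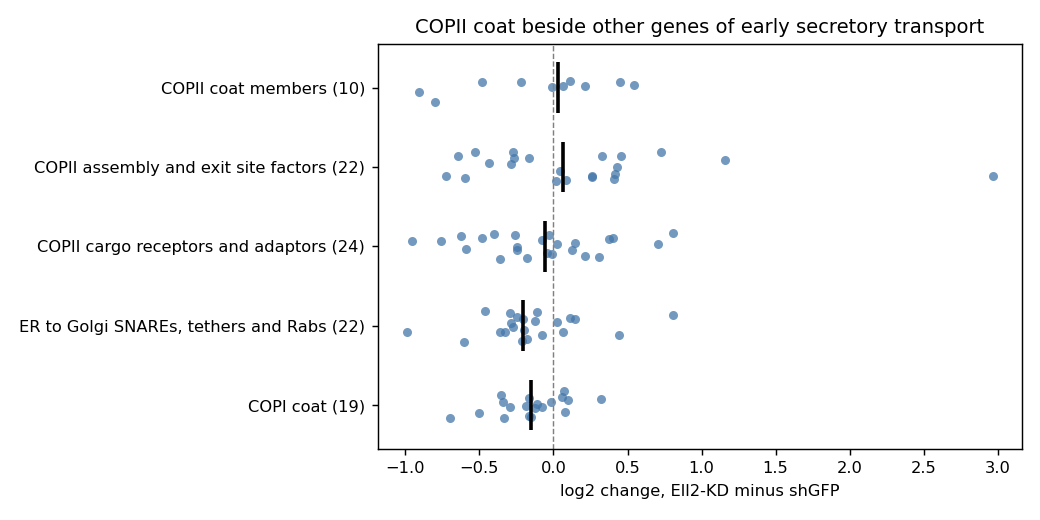
edgeR log2 change (Ell2-KD minus shGFP) of every tested gene of the coat and of 4 other groups of early secretory transport (number tested in brackets), with a black line at each median and a dashed line at the median of all tested genes. Medians lie between -0.20 and 0.06; the point at 2.97 is Mia2, which had 0 to 44 counts per library.

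Transcription factors known to drive COPII and ER stress genes were also counted, together with Mbtps1, Mbtps2 and Ern1, which act on such factors. Of 8 tested, 5 were positive and 3 negative, with a median of 0.06 and none past the threshold (1 higher and 1 lower at an unadjusted p under 0.05 by edgeR, beside 2.57% and 3.26% of all tested genes). Atf6, an ER stress sensor that becomes a transcription factor, stood at 431 and 469 CPM in shGFP and 287 and 287 in Ell2-KD (log2 change -0.65 ± 0.21, SE; edgeR adjusted p = 0.67). Its paralog Atf6b stood at 114 and 96.3 CPM in shGFP and 265 and 133 in Ell2-KD (0.92 ± 0.33; edgeR adjusted p = 0.75, and 0.011 with the higher Ell2-KD library alone, assumed to vary like the controls). Named for their roles, Creb3l2 had a log2 change of 0.12 ± 0.26 (SE) and Xbp1 of -0.05 ± 0.42, and both overlapped between groups. Sec23a and Sec24d, the members with TGACGTG at their starts, had log2 changes of -0.80 and -0.48, and members without it ran from -0.91 (Sec24a) to 0.55 (Sec24b).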

How the data were processed

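The members, gene lists and pairs were chosen with earlier results of these data known. For each SOLiD RNA-Seq library the deposited file gives raw read counts by gene, without normalization, per the file headers. Tools in the submitters' processing notes are DESeq 1.4.1, HTSeq 0.5.3 and SAMtools 0.1.11, with build mm9. For the aligner, annotation, strand setting and filters nothing was stated. From these counts edgeR 4.0.16 (R 4.3.3) fitted Ell2-KD against shGFP on the 4 libraries, with no covariate, after filterByExpr (minimum count 10, minimum total 15) and TMM scaling. The test was the robust two-sided quasi-likelihood test, with Benjamini-Hochberg adjustment across 11027 genes and a threshold of 0.05. The SE is the log2 change divided by the square root of F, and the 95% interval uses the test's degrees of freedom. CPM is relative to the library total times the TMM factor; marker sums use the total alone. The common biological coefficient of variation was 0.43, and log2 CPM correlated at 0.87 to 0.92 between libraries, so none was a copy of another. The test was tried on 3 simulated sets with 200 genes changed. Paralog ratios are log2 of counts with 0.5 added, and shares have exact Clopper-Pearson intervals for counting error only. Lengths, coding sequences (aligned with Biopython 1.88) and shared windows come from GENCODE M21 and promoters from RefSeq, both GRCm38; all 10 members matched. Named genes were all members, Sec31b, Ell2 and the 2 smallest p of each other list, beside those named for their roles. Alternatives were 3 other scalings, 2 filters, DESeq2 1.42.0, the replicate number as a block, and leaving out each library.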

Additional observations from a re-analysis of the deposited data

How the results depend on the processing

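No member passed under any of the 11 alternative settings, and of 110 log2 changes of members 104 kept their direction. The other 6 were of Sec13, Sec31a and Sar1b. Sec13 was 0.039 with no filter and 0.016 with the replicate block. With 1 library left out Sec13 ranged from -0.27 to 0.32 (the highest when shGFP replicate 2 was the one left out; 0.12 without Ell2-KD replicate 1), Sec31a from -0.18 (without Ell2-KD replicate 2) to 0.28, and Sar1b from -0.072 (without shGFP replicate 1) to 0.34. Sec24a ranged from -1.07 to -0.72, Sec23a from -0.98 to -0.59, Sec23b from -0.34 to -0.10, Sec24b from 0.30 to 0.85, Sec24c from 0.26 to 0.65, Sec24d from -0.96 to -0.13 and Sar1a from 0.035 to 0.38. In each of these fits 1 group had a single library, assumed to vary like the other group. Other scalings moved the median of all genes by -0.03 to 0.01.

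Over all genes, 1 was higher and 4 lower in Ell2-KD. These were 2 and 4 with DESeq2 size factors, 1 higher and 1 lower with library totals only, 8 and 14 with no filter, 20 and 23 with the DESeq2 Wald test, and 3 to 52 higher and 11 to 90 lower with 1 library left out. Of the other lists, the assembly factors, the cargo receptors and the regulators gained 1 call each, in fits with a single Ell2-KD library. The assembly factors had 1 higher (Ulk1) and the cargo receptors 1 lower (Tmed10) when Ell2-KD replicate 1 was left out. The regulators had 1 higher (Atf6b) when Ell2-KD replicate 2 was left out. With 1 library left out, each of these counts ranged from 0 to 1. The SNAREs, tethers and Rabs and the COPI genes stayed at 0 in both directions in every setting.

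The labels give both groups replicates 1 and 2 without saying that a number marks a shared batch. Deviations of same-numbered libraries correlated at 0.31 over genes. With the replicate block 15 genes were higher and 13 lower, no member passed, and the smallest adjusted p of a member was 0.098 (Sec24a, edgeR). Taken within replicate numbers 1 and 2 as blocks, the ratio of Sec24b to Sec24a differed by 1.77 and 1.15, of Sec23b to Sec23a by 0.60 and 0.52, of Sec24d to Sec24c by -0.28 and -1.71, of Sar1b to Sar1a by 0.013 and -0.16, and of Sec31b to Sec31a by 1.403 and -0.30, and the Sec24a and Sec24b share by -12.8 and -9.30 percentage points.

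With 1 library left out the difference in the log2 ratio ranged from 0.44 to 0.68 for Sec23b to Sec23a, 1.01 to 1.90 for Sec24b to Sec24a, -1.59 to -0.39 for Sec24d to Sec24c, -0.37 to 0.22 for Sar1b to Sar1a (0.13 without Ell2-KD replicate 1) and -0.92 to 2.02 for Sec31b to Sec31a (-0.07 without shGFP replicate 2), and the share from -13.4 to -8.69 percentage points. Adding 2 to each count or pooling the counts of a group changed no ratio's direction, but pooling moved Sec24d to Sec24c from -0.99 to -0.57 and Sec31b to Sec31a from 0.55 to 1.45. Depth limits Sec31b, at 3 to 80 counts.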
